A study of Mus musculus with 4 samples.

Results

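Interferon-high endothelial cells were the endothelial cells of mouse brain that carried the most RNA from 6 interferon-stimulated genes. A cell barcode counted as endothelial when it had at least 1000 UMIs (unique molecules counted), at least 500 genes, at most 10% mitochondrial UMIs, at least 5 UMIs of Cldn5 and Flt1 together and fewer than 50 of Hbb-bs and Hba-a1. It counted as interferon-high when Ifit1, Ifit3, Isg15, Rsad2, Usp18 and Oasl2 together gave at least 8 UMIs. Of 14864 kept cells, 2857 met the rule (253 and 1010 in control diet libraries 1 and 2, 536 and 1058 in PLX5622 diet libraries 1 and 2), and 11157 were other endothelial cells (1359, 4205, 3216 and 2377). All cells came from C57BL6 mice kept for 1 month on one of the diets, control chow or chow holding 1200 ppm of PLX5622. No other allele or agent is named for either group, and the ages are not given in the sources used here. PLX5622 blocks CSF1R, a receptor microglia need to survive, and the comparison asks what the loss of microglia does to brain vessels. Cells were sorted for CD31, and each diet had 2 droplet libraries that together drew on 3 mice. The 2 libraries of a diet may therefore share animals, and every p-value below measures the spread between libraries, which may be technical. The cells were chosen by the counts of these 6 genes, so their values are given as a description with no test.

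Type I interferons bind the receptor made of IFNAR1 and IFNAR2. The receptor's kinases JAK1 and TYK2 then phosphorylate STAT proteins such as STAT2, which join IRF9 and bind a short DNA element in the promoters of interferon-stimulated genes. The products of these genes sense viral RNA, block steps of viral growth, attach the small protein ISG15 to other proteins and raise antigen presentation by MHC class I. STAT2, IRF9 and IRF7 are themselves induced, so that one signal prepares the cell for the next. Brain endothelial cells form the blood-brain barrier and carry this receptor.

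Promoters are shown because the complex is known to bind them. The core letters GAAANNGAAA were searched on both strands, overlapping matches included, in RefSeq windows of build GRCm38.p6 from 250 bases before to 50 bases after each gene's start. Of the 6 rule genes 5 had a window, and 4 of them held the letters, against 3.99% of all 27025 genes with a window. The 250 bases before the start are printed for those 5 and for Stat2 and B2m, a signalling and an antigen presentation gene from outside the rule, 5′ to 3′ on the gene's strand with each match in capitals. Their positions are chr19:34640639-34640888 (Ifit1, + strand), chr19:34583279-34583528 (Ifit3, +), chr4:156200819-156201068 (Isg15, -), chr12:26456453-26456702 (Rsad2, -), chr5:114896684-114896933 (Oasl2, +), chr10:128270248-128270497 (Stat2, +) and chr2:122147437-122147686 (B2m, +).
Ifit1: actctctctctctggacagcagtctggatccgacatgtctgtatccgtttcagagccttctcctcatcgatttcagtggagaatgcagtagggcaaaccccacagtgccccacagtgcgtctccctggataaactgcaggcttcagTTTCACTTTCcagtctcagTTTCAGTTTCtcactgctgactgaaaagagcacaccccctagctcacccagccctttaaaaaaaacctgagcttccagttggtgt
Ifit3: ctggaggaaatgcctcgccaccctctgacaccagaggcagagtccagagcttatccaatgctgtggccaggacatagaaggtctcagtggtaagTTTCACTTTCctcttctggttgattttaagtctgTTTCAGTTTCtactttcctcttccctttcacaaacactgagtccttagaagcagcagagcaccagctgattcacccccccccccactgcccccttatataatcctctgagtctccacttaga
Isg15: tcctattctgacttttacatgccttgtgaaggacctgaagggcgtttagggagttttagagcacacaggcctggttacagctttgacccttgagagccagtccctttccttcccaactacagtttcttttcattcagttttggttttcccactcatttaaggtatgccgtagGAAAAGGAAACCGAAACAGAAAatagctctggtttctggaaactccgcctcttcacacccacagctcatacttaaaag
Rsad2: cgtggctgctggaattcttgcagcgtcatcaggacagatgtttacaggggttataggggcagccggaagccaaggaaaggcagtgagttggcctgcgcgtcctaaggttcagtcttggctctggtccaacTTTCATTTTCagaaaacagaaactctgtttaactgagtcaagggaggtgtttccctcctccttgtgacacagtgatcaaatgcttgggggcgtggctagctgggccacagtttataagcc
Oasl2: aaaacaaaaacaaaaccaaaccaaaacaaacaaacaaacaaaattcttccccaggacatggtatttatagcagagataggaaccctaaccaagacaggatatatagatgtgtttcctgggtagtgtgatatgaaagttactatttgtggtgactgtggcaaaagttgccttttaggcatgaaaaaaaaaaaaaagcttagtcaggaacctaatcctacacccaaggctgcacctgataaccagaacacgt
Stat2: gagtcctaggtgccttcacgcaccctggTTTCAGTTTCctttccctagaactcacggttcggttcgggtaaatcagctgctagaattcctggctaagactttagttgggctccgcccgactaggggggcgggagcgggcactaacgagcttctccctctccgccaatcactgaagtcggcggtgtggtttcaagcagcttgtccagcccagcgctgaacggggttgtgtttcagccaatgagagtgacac
B2m: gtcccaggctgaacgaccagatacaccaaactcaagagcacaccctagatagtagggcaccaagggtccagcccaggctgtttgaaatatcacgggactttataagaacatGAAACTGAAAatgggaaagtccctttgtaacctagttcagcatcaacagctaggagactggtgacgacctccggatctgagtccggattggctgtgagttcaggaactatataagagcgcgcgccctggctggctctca
Ifit1 and Ifit3 each held 2 separate matches, the nearest beginning 85 and 122 bases before the start, and Isg15 held 3 that overlap. Rsad2 held 1 match, 120 bases before the start, and Oasl2 held none in this window. Stat2 and B2m were printed from among the genes with a match. Of the other genes looked up that had a window, Bst2 and Cxcl10 held matches. Irf7, Irf9, Irf1, Ifnar1 and H2-K1 held none. The bases just after the Stat2 start were not found in a GENCODE transcript of the gene, unlike those of the other printed genes. The letters were in 60 of 255 genes (23.5%) with a window that were higher in interferon-high cells, in 6 of 219 (2.74%) that were lower and in 339 of 9397 (3.61%) of those tested. Among the gene lists described below, they were in 9 of 10 immunity GTPase genes, 13 of 29 antiviral effectors, 3 of 7 sensors, 4 of 16 MHC class I genes, 1 of 6 regulatory factors, 1 of 9 receptor and signalling genes, 0 of 5 conjugation genes and 0 of 13 cholesterol synthesis and uptake genes with a window. A match is a description of the letters and not a bound site.

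The matrices held 11186648, 38600208, 19044018 and 26949278 UMIs in the order control diet 1 and 2 and PLX5622 diet 1 and 2. No interferon-high barcode occurred in more than 1 library. Interferon-high cells were deeper than the other endothelial cells in each library, with medians of 6773, 7085.5, 4919.5 and 7039.5 UMIs per cell against 4839, 5248, 3622 and 5333. The rule asks for a fixed number of UMIs, so deeper cells meet it more easily, and results were repeated with depth held alike.

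The 6 genes formed a continuum rather than a separate group (bar plot of six-gene UMIs per cell). In the 4 libraries 28.0%, 25.4%, 28.7% and 16.5% of endothelial cells had none of these UMIs. Just outside the rule, 52, 154, 112 and 124 cells had exactly 7, and just inside it 56, 143, 88 and 126 cells had exactly 8. The median interferon-high cell had 12, 13, 11 and 13 UMIs over the 6 genes, and the highest cells had 43, 111, 44 and 135. No gap separated the interferon-high cells from the rest in any library.

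**Figure D1:**
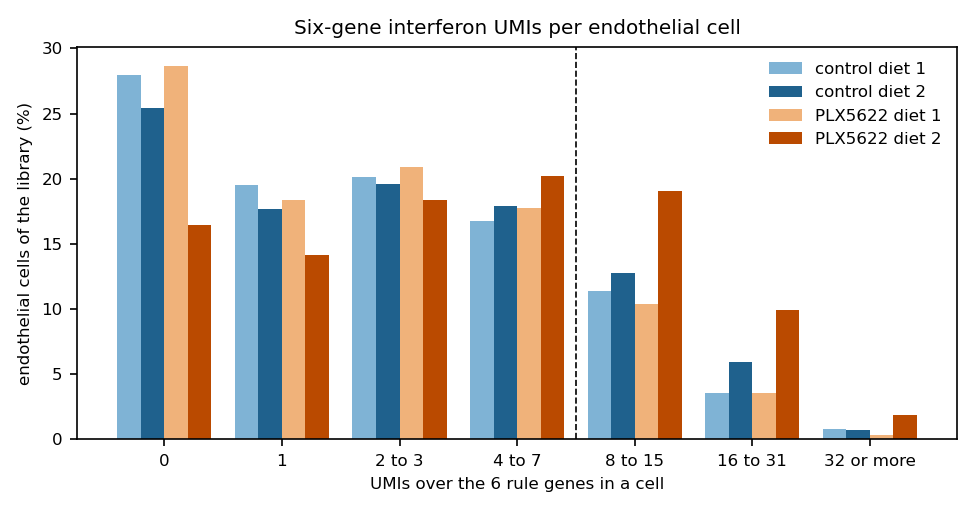
Share of each library's endothelial cells (y axis, percent) by UMIs over the 6 rule genes in the cell (x axis), with 1 bar per library and a dashed line at the minimum of 8 UMIs. No library has a gap at the line, and PLX5622 library 2 has the fewest cells at 0 (16.5%) and the most at 32 or more (1.83%).

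Most interferon-high cells drew on several of the 6 genes. All 6 were seen in 593 cells (20.8%), at least 5 in 1543 (54.0%), and 1 or 2 in 91 (3.19%). Isg15, the ubiquitin-like modifier, stood at 482, 562, 768 and 683 CPM (UMIs of the gene, scaled to a common total of UMIs per sum of cells) in interferon-high cells and at 98.7, 109, 174 and 147 in the others. Ifit1, which binds foreign RNA, stood at 407, 371, 517 and 397 against 56.5, 57.3, 88.0 and 69.4. Rsad2, the antiviral enzyme viperin, stood at 338, 269, 313 and 267 against 86.9, 64.2, 67.1 and 66.1. Usp18, which removes ISG15 from proteins and dampens the receptor, stood at 121, 120, 169 and 127 against 29.2, 28.3, 39.96 and 34.3. Counts of these genes in the other endothelial cells were thus low but not absent. Free RNA, taken from barcodes under 100 UMIs, held the 6 genes together at 540, 549, 645 and 809 CPM. How much of the low counts was free RNA was not tested.

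Of the 8 endothelial markers, Cldn5 and Flt1 chose the cells and so check nothing. The other 6 (Pecam1, Cdh5, Kdr, Tek, Slco1a4 and Ly6c1) were detected among interferon-high cells of each library, and their sum lay between 7468 and 8268 CPM, against 7033 to 7951 in the other endothelial cells. The 5 markers of T and NK cells summed to at most 0.114 CPM in interferon-high cells, with all 5 at 0 in 3 libraries. The 9 microglial markers summed to 25.2 to 35.6 against 24.4 to 26.6 in the other cells, and 2, 6, 2 and 3 of them were detected in interferon-high cells. Cells with 3 or more microglial UMIs made up 1.19%, 0.79%, 0.19% and 0.28% of interferon-high cells. In the other cells, which were shallower, they made up 0.15%, 0.21%, 0.09% and 0.25%. Pericyte markers summed to 326 to 483 against 392 to 481, and smooth muscle markers to 7.66 to 37.0 against 68.4 to 105. Barcodes under 100 UMIs, which hold free RNA, carried the 6 genes at 540, 549, 645 and 809 CPM, against 1800, 1755, 2324 and 1948 in interferon-high cells, a level that the rule sets. The part of free RNA in the six-gene counts was not tested. Among kept cells that were not endothelial by the rule, 4 of 84 (4.76%), 43 of 294 (14.6%), 32 of 237 (13.5%) and 60 of 235 (25.5%) had at least 8 UMIs of the 6 genes, at median depths of 7612.5, 9107, 6311 and 9612 UMIs. A barcode could fail the rule by Cldn5 and Flt1 or by Hbb-bs and Hba-a1, and the cell types of these barcodes were not checked. A high six-gene count was therefore not limited to barcodes that met the endothelial rule.

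Genes outside the rule were compared between the summed counts of interferon-high and of other endothelial cells within each library (edgeR quasi-likelihood test with the library as a block, Benjamini-Hochberg adjustment at 0.05). Of 12240 genes tested, 322 (2.63%) were higher in interferon-high cells and 291 (2.38%) lower, together 613 (5.01%). The direction was higher in all 4 libraries for 12.5% of the genes tested and lower in all 4 for 8.91%. The higher genes were led by the interferon response. With counts scaled to library totals, 65.0% of the calls were higher ones, against 52.5% here, and the median of all genes was 0.003 on the log2 scale.

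Of the 10 genes of interferon receptors and signalling, 3 were higher and 0 lower, with a list median of 0.01, and Stat2 and Irf9 were among the 3. Stat2 stood at 98.2, 76.6, 102 and 88.2 CPM in interferon-high cells and at 42.6, 33.4, 49.3 and 39.4 in the others, higher in 4 of 4 libraries (log2 difference 1.14 ± 0.05 SE, adjusted p = 9.1e-30). The ranges of Stat2 did not overlap. Irf9 stood at 134, 112, 150 and 133 against 73.7, 69.9, 87.5 and 78.5 (0.74 ± 0.04). Ifnar1, the receptor's first chain, stood at 226, 202, 230 and 216 against 230, 198, 223 and 215 (0.01 ± 0.03, adjusted p = 0.97). Ifnar2 stood at 320, 316, 305 and 332 against 313, 325, 322 and 348 (-0.06 ± 0.03, adjusted p = 0.29). Jak1 did not pass either (0.09 ± 0.04, adjusted p = 0.26).

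Transcription factors of the interferon regulatory family were higher in 2 of 5 tested. Irf7, which amplifies interferon production, stood at 121, 141, 160 and 168 against 62.8, 74.4, 81.3 and 97.5 (0.88 ± 0.04, adjusted p = 8.1e-30). Irf1 stood at 82.1, 62.7, 73.7 and 75.4 against 63.4, 51.8, 56.7 and 57.1 (0.34 ± 0.05). Both were higher in 4 of 4 libraries. The interferons themselves were not seen: over 22519514 UMIs of interferon-high cells, 10 interferon genes gave 0 UMIs, which allows up to 0.133 CPM for each. The other endothelial cells gave 3 UMIs in all, 1 each of Ifna2, Ifng and Ifnk.

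Nucleic acid sensors were higher in 6 of 10 cases. Ifih1, the RNA sensor MDA5, stood at 94.7, 89.5, 97.3 and 87.2 against 52.5, 45.2, 45.9 and 47.1 (0.94 ± 0.05). Ddx58, the sensor RIG-I, differed by 0.79 ± 0.05, and Eif2ak2, the kinase PKR that halts translation, by 1.01 ± 0.05. Zbp1, a sensor of Z-form nucleic acid, was scarce at 10.5, 9.95, 17.9 and 14.1 against 4.94, 2.34, 4.61 and 5.27 (1.68 ± 0.15). For each of these 4 sensors every interferon-high sum lay above every other sum.

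Antiviral effectors were higher in 25 of 30 tested and lower in 0, with a median of 0.82. Ifit2, a partner of Ifit1, stood at 72.1, 65.9, 86.2 and 89.3 against 14.4, 12.2, 15.1 and 20.3 (2.32 ± 0.07, adjusted p = 4.3e-41). Cmpk2, a mitochondrial nucleotide kinase that neighbours Rsad2, stood at 124, 117, 142 and 106 against 46.2, 42.2, 57.4 and 46.8 (1.33 ± 0.05). Ifi44 differed by 1.45 ± 0.06, Slfn2 by 1.33 ± 0.06 and Rtp4 by 1.12 ± 0.05. Bst2, the protein tetherin that holds budding virus at the membrane, stood at 239, 284, 362 and 389 against 177, 188, 238 and 265 (0.55 ± 0.03). Ifitm3, which blocks viral entry, stood at 1220, 1481, 1674 and 1588 against 844, 968, 1181 and 1132 (0.52 ± 0.02). Each of these genes was higher in 4 of 4 libraries. Ifit3b differed by 2.62 ± 0.07, but it is a near copy of the rule gene Ifit3, so its reads may be split between them and its value is uncertain.

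All 6 genes of ISG15 and ubiquitin conjugation were higher. They included Ube2l6, the enzyme that passes on ISG15 (0.61 ± 0.07), Herc6, the ligase that attaches it in mice (0.70 ± 0.08), and the paired factors Parp9 (0.96 ± 0.07) and Dtx3l (0.78 ± 0.06). Ube2l6 stood at 43.6, 36.3, 38.3 and 39.2 against 26.96, 22.9, 27.4 and 25.2. Of the GTPases that act on vacuoles of intracellular microbes, 14 of 15 tested were higher, with a median of 1.08. Iigp1 stood at 169, 136, 184 and 147 against 69.2, 52.8, 63.3 and 55.9 (1.39 ± 0.04). Irgm1 stood at 145, 117, 175 and 115 against 55.7, 40.5, 64.6 and 48.3 (1.39 ± 0.05). Tgtp2 (1.58 ± 0.09), Igtp (1.25 ± 0.06), Gbp7 (0.88 ± 0.03) and Gbp3 (0.76 ± 0.04) were higher too. Tgtp2 has a near copy, Tgtp1, and reads of the pair may be split.

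Antigen presentation by MHC class I differed by less, in nearly every gene. Of 19 genes tested 18 were higher, with a median of 0.27. Tap1, the peptide transporter, stood at 56.1, 38.7, 41.5 and 38.2 against 32.5, 19.0, 21.3 and 19.3 (0.95 ± 0.07). Psmb8 (0.51 ± 0.04) and Psmb9 (0.46 ± 0.05), subunits of the immunoproteasome, followed. B2m, the light chain, stood at 2133, 1450, 2148 and 2084 against 1841, 1194, 1760 and 1690 (0.26 ± 0.02), and H2-K1, a heavy chain, at 819, 575, 700 and 777 against 726, 499, 623 and 602 (0.23 ± 0.03). Both were higher within 4 of 4 libraries although the ranges across libraries overlapped. Cd274, the checkpoint ligand PD-L1, was among the 12 genes of largest difference, at 49.6, 33.3, 39.9 and 38.4 against 22.2, 14.5, 20.1 and 16.7 (1.14 ± 0.08).

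**Figure D2:**
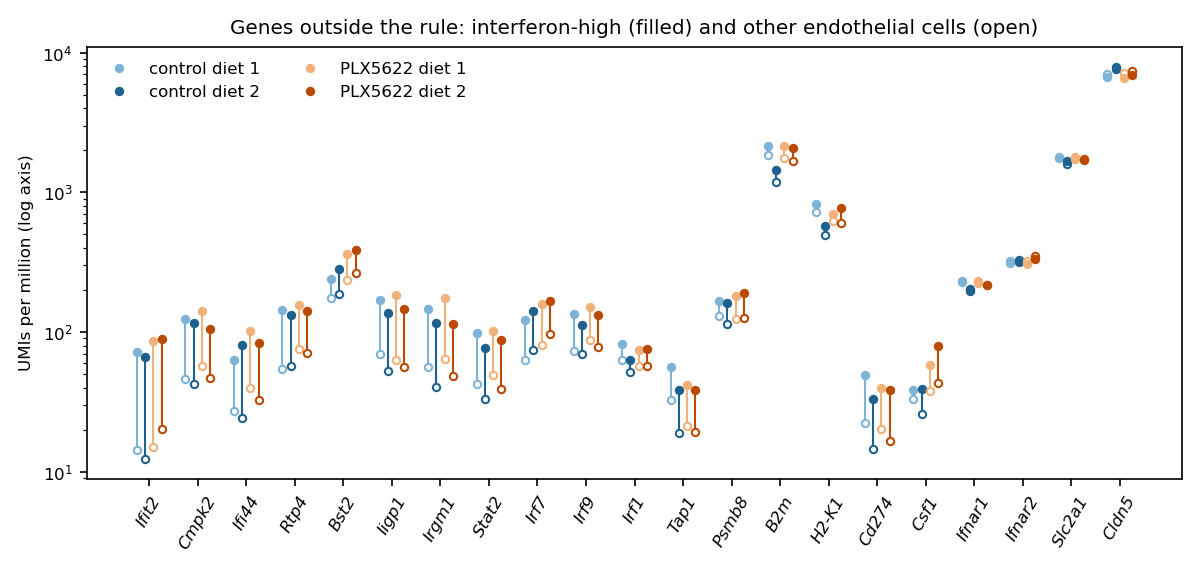
CPM (y axis, log scale) of 21 genes outside the rule in interferon-high cells (filled) and other endothelial cells (open), with a line joining the 2 sums of each library. The filled points lie above the open ones for the interferon-stimulated genes and next to them for Ifnar1, Ifnar2, Slc2a1 and Cldn5.

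The counts were repeated with depth held alike. With the other endothelial cells limited to like depth, 25 of 30 antiviral effectors were higher and 1 lower, and 14 of 15 GTPases, 18 of 19 MHC class I genes and 6 of 6 conjugation genes were higher. In the thinned setting, cells were chosen by the rule after thinning to 3000 UMIs, and their full counts were then summed. This left 67, 300, 219 and 346 interferon-high cells, with medians of 5402, 5575.5, 4222 and 5852.5 UMIs. The other cells had medians of 5742, 5839, 4439 and 6146. Gene values of thinned cells are from these sums, in which 5 of 6 conjugation genes were higher. Over 13 alternatives the counts of higher genes ranged from 24 to 25 for antiviral effectors and from 15 to 18 for MHC class I genes, and the GTPases stayed at 14. Leaving out PLX5622 diet library 2 gave the lowest count of MHC class I genes, 15 of 19.

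Of 6 chemokines tested, Cx3cl1 was higher (0.29 ± 0.05) and Cxcl12 lower (-0.12 ± 0.02), and Cxcl10, which attracts T cells, stood at only 3.005, 2.08, 4.79 and 5.60 against 1.69, 2.10, 3.51 and 2.63 and did not pass (adjusted p = 0.18). In thinned cells Cxcl12 was 0.07 higher. Icam1 was the 1 leukocyte adhesion gene of 6 that was higher (0.34 ± 0.06), but with the other cells limited in depth its difference was 0.04 and with thinned cells -0.06. Csf1, the ligand of the receptor that PLX5622 blocks, stood at 38.6, 39.4, 57.8 and 79.9 against 32.9, 26.0, 37.8 and 42.8 (0.67 ± 0.07, higher in 4 of 4 libraries), as the 1 acute phase and inflammatory gene of 7 that was higher. In thinned cells 1 gene of that list was higher and 4 were lower, with a median of -0.70. Of the 6 feedback inhibitors tested, Socs1 among them (0.23 ± 0.10, adjusted p = 0.20), 0 were called.

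Of 9 junction genes 2 were lower, Cldn5 (-0.10 ± 0.02) and Jam2 (-0.09 ± 0.03). The call of Cldn5 is not used, because its counts helped to choose the cells of both populations. Jam2 lost its call with any 1 library left out (adjusted p = 0.063 to 0.19), with library totals (0.091), with DESeq2 (0.33), in thinned cells (0.38), without cells that held markers of other types (0.19) and with the other cells limited in depth (0.37). Cldn5, the main claudin of the barrier and part of the endothelial rule, stood at 6692, 7593, 6583 and 6963 against 7017, 7948, 7196 and 7423, and its difference was 0.01 with the other cells limited in depth and 0.02 with thinned cells. Of 12 barrier transporters, Slc16a1, the lactate carrier, was lower (-0.13 ± 0.03), but with the other cells limited in depth it differed by -0.08 (adjusted p = 0.11). Slc2a1, the glucose carrier, stood at 1789, 1670, 1800 and 1743 against 1772, 1595, 1743 and 1702 (0.03 ± 0.02, adjusted p = 0.58). Of 20 cholesterol synthesis and uptake genes 0 passed, and of 5 genes on the efflux list 0, with list medians of 0.06 and 0.08.

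The lower genes had no list of their own. The 8 of largest difference were Myl9, Wtip, Mettl26, Metap1, Eif4ebp1, Fdx2, Nudt4 and Mylk. Myl9, a smooth muscle myosin light chain, stood at 18.5, 19.6, 15.3 and 15.8 against 31.5, 38.0, 26.8 and 34.8 (-0.99 ± 0.08). Without the cells that held markers of other cell types, Myl9 differed by 0.12 and Mylk, the kinase of that chain, by 0.32 and neither passed. The other 6 differed by -0.26 to -0.35, and each lost its call in 1 or more alternatives.

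Genes outside the rule stood higher with more six-gene UMIs along the range, below the minimum of 8 as well as above it. Stat2 and Irf9 together stood at 72.4, 65.2, 95.5 and 79.1 CPM in cells with none of the six-gene UMIs. They stood at 148, 135, 180.4 and 149.7 in cells with 4 to 7, at 231, 171, 229 and 204 with 8 to 15, at 228, 219, 296 and 237 with 16 to 31, and at 263, 215, 356 and 270.1 with 32 or more. Antiviral effectors outside the rule followed the same order, from 2503, 2476, 2928 and 2936 to 5347, 6471, 7381 and 6820. Ifnar1 and Ifnar2 together stood at 530, 531, 547 and 550 in cells with none and at 553, 559, 645 and 540 in cells with 32 or more. The last class held only 13, 36, 13 and 63 cells. On either side of the minimum, Stat2 and Irf9 stood at 191, 162, 208 and 202 at exactly 7 UMIs and at 207, 145, 237 and 199 at exactly 8, higher at 8 in 2 of 4 libraries. The cells are ordered by the rule's own genes and depth rises along the order, so no test was made.

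**Figure D3:**
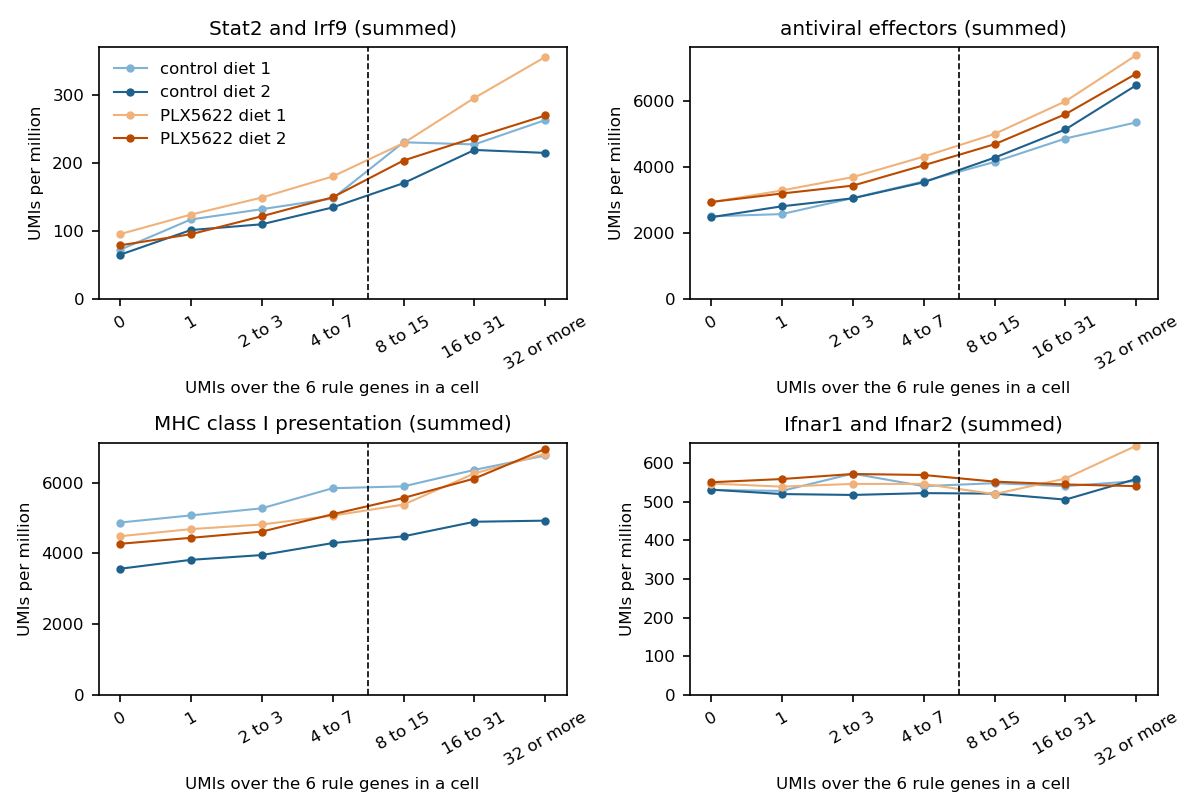
Summed CPM (y axis) of 4 gene groups outside the rule against UMIs over the 6 rule genes in the cell (x axis), with 1 line per library and a dashed line at the minimum of 8. The antiviral effectors and the MHC class I genes rise along the axis in each library, and so do Stat2 and Irf9 except for the last 2 classes of control library 2 (219 and 215) and, in control library 1, the step from 231 to 228, while Ifnar1 and Ifnar2 stay between 505 and 645.

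Vessel zones were assigned from markers of arteries, arterial-side capillaries, venous-side capillaries and veins after thinning each cell to 2000 UMIs. Interferon-high cells were found in all 4 zones, where they made up between 13.7% and 34.1% of the zone's endothelial cells. In interferon-high cells arteries held 18.1%, 18.3%, 18.0% and 20.04%, against 16.5%, 15.1%, 17.1% and 18.3% of the others. Arterial-side capillaries held 39.4%, 34.0%, 25.8% and 25.3% against 30.6%, 30.5%, 25.2% and 24.0%. Venous-side capillaries held 25.7%, 28.0%, 32.3% and 35.0% against 33.2%, 33.5%, 36.3% and 35.9%. Veins held 16.9%, 19.6%, 23.9% and 19.7% against 19.7%, 20.8%, 21.3% and 21.8%. With zones called by summed marker UMIs instead, arteries held only 2.15%, 1.77%, 0.41% and 1.70% of interferon-high cells. Veins then held 0.43%, 0.10%, 0.20% and 0.40%, so the size of these zone shares depends on how the markers are scaled.

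Zone shares of interferon-high and other cells were compared within each library. The mean difference was 1.84 ± 0.97 percentage points for arteries and 3.54 ± 3.69 for arterial-side capillaries (SD, 4 of 4 libraries higher), and -4.48 ± 2.76 for venous-side capillaries (4 of 4 lower). The exact sign-flip permutation test gave p = 0.125 for each, two-sided, which is the smallest that 4 libraries allow, so none can pass 0.05. For veins the difference was -0.90 ± 2.43 with 1 of 4 libraries higher (exact p = 0.50). Adjusted over the 4 zones (Benjamini-Hochberg), the exact p was 0.167 for the first 3. The arterial difference was 0.10 points in unthinned cells, with 2 of 4 libraries higher, and leaving out control diet library 1 brought the arterial-side capillary difference to 1.80. The arterial-side difference was above 0 in 3 of 4 libraries at a minimum of 5 or of 12 UMIs. With thinning to 3000 UMIs before the rule was applied, it was 9.05 and the venous-side one -8.47. Without cells that held markers of other types, the arterial difference was 0.96, above 0 in 3 of 4 libraries, and the venous-side one -3.99, above 0 in 1 of 4. Between 34.5% and 38.9% of interferon-high cells lay near the cut between 2 zones. Efnb2 of the arterial list and Slc26a10 of the arterial-side list were among the genes that changed with diet, so zone shares were not compared between diets.

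The share of interferon-high cells was read against diet by library. It was 15.7% (95% exact binomial interval 14.0 to 17.6) and 19.4% (18.3 to 20.5) in the control libraries and 14.3% (13.2 to 15.4) and 30.8% (29.3 to 32.4) in the PLX5622 libraries. These intervals cover counting error only. PLX5622 library 2 was the highest and PLX5622 library 1 the lowest, so the 2 diets overlapped. The means were 17.5% ± 2.597 and 22.5% ± 11.7 (SD, n = 2 each), a difference of 5.01 percentage points (exact two-sided permutation test, p = 1, where the smallest possible p is 0.333). Without PLX5622 library 2 the difference was -3.25 points, and without PLX5622 library 1 it was 13.3.

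The order of the libraries was different once depth was held alike. PLX5622 library 1 had the shallowest cells. With each cell thinned to 3000 UMIs and shallower cells left out (309, 538, 1126 and 340), the shares were 5.14%, 6.41%, 8.34% and 11.2%, and both PLX5622 libraries lay above both controls (difference 3.98 points, exact p = 0.333). With a minimum of 4 UMIs after thinning, a setting chosen after seeing the data, they were 19.7%, 20.1%, 25.3% and 31.7%. Among unthinned cells with 4000 to 6000 UMIs the shares were 15.2%, 14.4%, 17.6% and 24.2%, and among those with at least 10000 they were 42.1%, 42.8%, 48.2% and 59.4%. Both PLX5622 libraries were above both control libraries in 4 of the 5 depth classes, the exception being the shallowest, where 4, 1, 9 and 0 cells met the rule. From 2000 to 4000 UMIs the gap was narrow, with shares of 6.28%, 8.99%, 9.07% and 13.9%. The classes divide the cells of the same 4 libraries and are not independent repeats. The six-gene level of free RNA was also highest in PLX5622 library 2 (809 CPM). So was the share of high cells among kept barcodes outside the endothelial rule (25.5%). Their part in the difference was not tested. With 2 libraries a diet, no share difference could pass 0.05 by this exact permutation test.

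**Figure D4:**
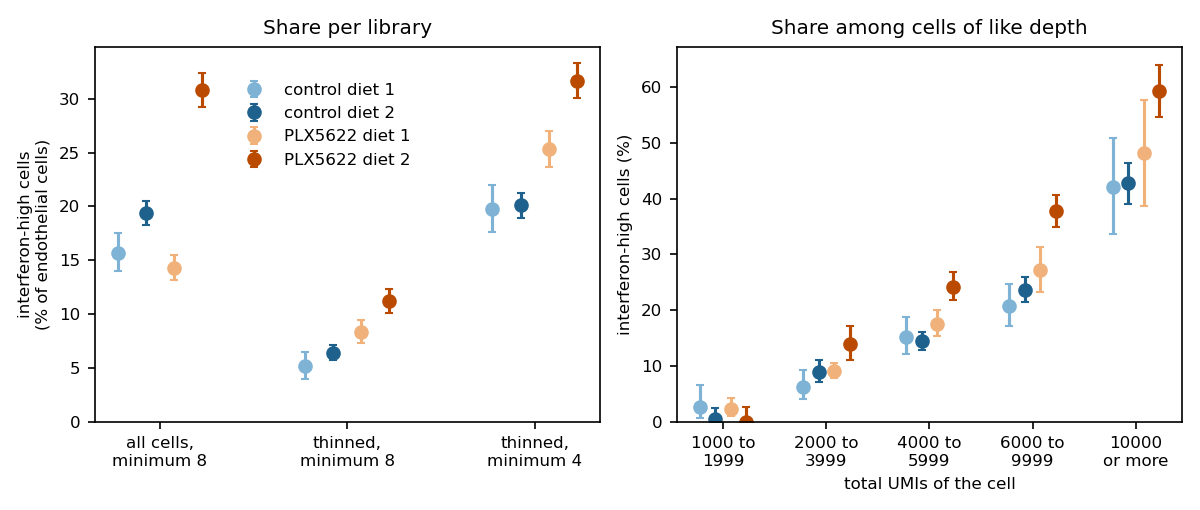
Interferon-high cells as a percentage of endothelial cells in each library, with 95% exact binomial intervals that cover counting error only: all cells and cells thinned to 3000 UMIs (left) and unthinned cells by total UMIs (right). The 2 diets overlap in all cells at 14.3% to 30.8%, and both PLX5622 libraries lie above both controls after thinning and in the 4 deeper classes. At 2000 to 4000 UMIs the gap is narrow (9.07% in PLX5622 library 1 against 8.99% in control library 2).

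The level within interferon-high cells was then compared between diets. Of 11322 genes tested, 88 (0.777%) were higher on PLX5622 and 48 (0.424%) lower, 1.2% in all (edgeR quasi-likelihood test, Benjamini-Hochberg adjustment at 0.05). Among the 88 was the rule gene Isg15, whose test is not used because its values chose the cells. In the other endothelial cells 116 of 12465 genes (0.931%) were higher and 56 (0.449%) lower, 1.38% in all. The groups did not overlap, with both PLX5622 libraries above both controls, for 15.4% of genes in interferon-high cells and 14.2% in the others, and with both below for 22.6% and 26.8%.

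Few interferon genes passed within interferon-high cells. Of 30 antiviral effectors, 1 was higher, Bst2, at 239 and 284 CPM on control diet and 362 and 389 on PLX5622 (log2 difference 0.54 ± 0.12 SE, adjusted p = 0.0046). Both PLX5622 values lay above both controls, but without control library 1 the adjusted p of Bst2 was 0.072 and without PLX5622 library 2 it was 0.17, and in thinned cells 0.12. Of 14 GTPases, 1 was higher, Tgtp1, at 21.0 and 16.6 against 31.6 and 29.0 (0.78 ± 0.18, adjusted p = 0.0077), a call lost without control library 2 (adjusted p = 0.35) or PLX5622 library 1 (0.055). None of the receptor and signalling genes, regulatory factors, sensors, conjugation genes or MHC class I genes passed. Stat2 was 98.2 and 76.6 against 102 and 88.2 (0.19 ± 0.12, adjusted p = 0.78). Irf7 was 121 and 141 against 160 and 168 (0.33 ± 0.11, adjusted p = 0.22) and passed only without control library 2 (adjusted p = 0.042). Ifit2 (0.40 ± 0.12, adjusted p = 0.12) and Gbp5 (0.42 ± 0.12, adjusted p = 0.060) did not pass, though Ifit2 passed at a minimum of 5 UMIs (0.046) and Gbp5 without control library 1 (0.0069). B2m was 2133 and 1450 against 2148 and 2084 (0.29 ± 0.15), and passed only without control library 1 (adjusted p = 0.021).

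The log2 differences of the antiviral list, of which Bst2 alone passed, were above 0 for 29 of 30 genes with a median of 0.22, beside 50.4% and a median of 0.002 over all genes tested. The shift was not particular to interferon-high cells: in the other endothelial cells 28 of 29 were above 0, with a median of 0.34. In the thinned setting the median of the list was 0.03 in interferon-high cells and 0.28 in the others. Of the 6 rule genes, whose values chose the cells, Isg15, Ifit3 and Usp18 stood above both controls in both PLX5622 libraries in interferon-high cells, and Ifit1, Rsad2 and Oasl2 overlapped between diets. A minimum of 8 UMIs is a larger share of a shallow cell, and PLX5622 library 1 had the shallowest cells.

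In the other endothelial cells 7 of 29 antiviral effectors passed, among them Bst2 (0.51 ± 0.10, adjusted p = 0.0098), Ifi44 (0.56 ± 0.12), Rtp4 (0.44 ± 0.10) and Ifit3b (0.66 ± 0.14). This count ranged from 2, without cells that held markers of other types, to 13, without control library 1, over 13 alternatives. Without PLX5622 library 2 the adjusted p was 0.25 for Bst2, 0.055 for Rtp4 and 0.070 for Ifit3b, and without PLX5622 library 1 it was 0.36 for Ifi44 and 0.32 for Rtp4. With DESeq2 the adjusted p was 0.11 for Ifi44, 0.093 for Rtp4 and 0.17 for Ifit3b. The difference between the 2 populations was tested itself, as an interaction of diet and population, and 0 of 30 antiviral effectors passed it, with Bst2 at 0.02 ± 0.06 and Rtp4 at -0.27 ± 0.08 (adjusted p = 0.88). Of 12246 genes, 6 (0.049%) passed the interaction, 4 higher (0.0327%) and 2 lower (0.0163%), and 0 in any interferon list. A different response of the 2 populations was therefore not shown for interferon genes.

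Cholesterol genes differed by diet in interferon-high cells and in the others. Of 20 synthesis and uptake genes 16 were higher on PLX5622 in interferon-high cells, with a median of 1.16. The count was 9 of 18 in thinned cells and 11 of 20 with DESeq2. Idi1, an enzyme of isoprenoid synthesis, stood at 22.04 and 22.1 against 57.1 and 65.0 (1.51 ± 0.15), and Sqle, squalene epoxidase, at 6.51 and 4.51 against 20.4 and 22.6 (2.15 ± 0.25). Insig1, which holds back the sterol sensor (1.59 ± 0.14), Msmo1 (1.66 ± 0.15) and Cyp51 (1.66 ± 0.17) rose too. In the other endothelial cells 18 of 20 were higher, with Idi1 at 21.6 and 22.6 against 59.8 and 56.1 (1.42 ± 0.10). The interaction was 0.12 ± 0.14 for Idi1 and did not pass (adjusted p = 1).

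On the cholesterol efflux list 3 of 5 genes were lower. Abca1, which loads cholesterol onto lipoproteins, stood at 62.1 and 42.1 against 18.8 and 23.3 (-1.14 ± 0.16, adjusted p = 4.7e-06), beside 56.0 and 40.1 against 21.3 and 20.1 in the other cells (-1.13 ± 0.12). Abcg1, a cholesterol exporter (-1.63 ± 0.21), and Mylip, which is on the list but is not an exporter (-1.03 ± 0.18), were lower as well. In thinned cells 1 of 4 genes of the list passed, with adjusted p = 0.11 for Abcg1 and 0.098 for Mylip. With DESeq2 Mylip missed the threshold (adjusted p = 0.056).

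Of 6 acute phase and inflammatory genes 5 were higher in interferon-high cells, with a median of 1.42 and 3 to 6 higher over 13 alternatives. They included Ptgs2, the prostaglandin enzyme COX-2 (1.56 ± 0.18), Ch25h, which makes 25-hydroxycholesterol (1.27 ± 0.19), and Csf1 (0.88 ± 0.14), whose adjusted p was 0.15 without PLX5622 library 2. Lcn2, an iron-binding acute phase protein, stood at 1.00 and 4.05 against 24.9 and 45.6 (3.46 ± 0.47, adjusted p = 0.042), and lost its call without cells that held markers of other types (adjusted p = 0.82). Ch25h did not pass in thinned cells (adjusted p = 0.84). Chemokines Cxcl1 (0.80 ± 0.15) and Cxcl2 (1.14 ± 0.22) were higher among 6, with 0 to 2 higher over 13 alternatives. Cxcl2 lost its call without PLX5622 library 2 (adjusted p = 0.12) and with DESeq2 (0.16), and both did in thinned cells and at a minimum of 5 UMIs, while Cxcl10 was not (1.22 ± 0.41, adjusted p = 0.19). Angpt2, a ligand that loosens vessel contacts, stood at 5.01 and 5.79 against 28.4 and 47.3 (2.84 ± 0.23), beside 1.91 ± 0.17 in the other cells (interaction 0.84 ± 0.23, adjusted p = 0.56). Of 11 heat shock genes 4 were higher, including Hsph1 (0.97 ± 0.19) and Hspe1 (0.54 ± 0.12), with 0, in thinned cells, to 4 over 13 alternatives. Hsph1 lost its call without PLX5622 library 1 (adjusted p = 0.084), and Hspe1 without control library 2 (0.090) or PLX5622 library 2 (0.23). Junction genes (0 of 9) and barrier transporters (0 of 12) did not pass, with Cldn5 at -0.04 ± 0.16 and Slc2a1 at 0.07 ± 0.14. The value of Cldn5, which helped to choose the cells, is a description only. H2-K1 was at 0.14 ± 0.13. Ankrd37 (1.56 ± 0.14) was among the 8 genes that rose most, and Slc26a10 (-0.93 ± 0.15) among those that fell most.

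Efnb2, the arterial ephrin, fell in interferon-high cells and was 1 of the 6 genes past the interaction test. It stood at 98.7 and 71.9 on control diet and at 50.1 and 46.7 on PLX5622 in interferon-high cells (-0.74 ± 0.14, adjusted p = 0.00036). In the other endothelial cells it stood at 66.8 and 58.8 against 57.4 and 55.4 (-0.10 ± 0.10, adjusted p = 0.80). The interaction was -0.60 ± 0.11 (adjusted p = 0.0058), and without PLX5622 library 2 it was -0.57. In thinned cells the interaction was -0.52 (adjusted p = 0.87), and the diet difference in interferon-high cells was -0.80 (adjusted p = 0.098). Without cells that held markers of other types the interaction was -0.57 (adjusted p = 0.064). Its call was thus lost in each of these settings. The arterial marker list holds Efnb2, so arterial shares were not compared between diets. The part of vessel zone in this difference was not tested.

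**Figure D5:**
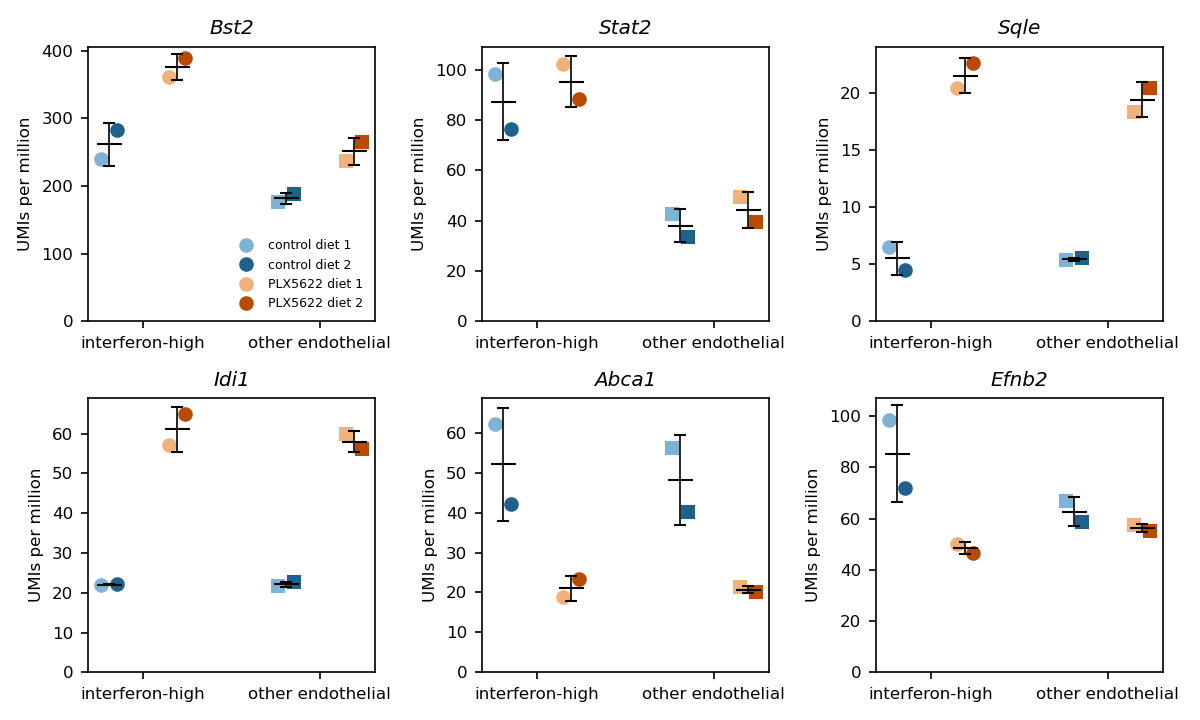
CPM (y axis) of 6 genes in interferon-high cells (circles) and other endothelial cells (squares), with control libraries in blue on the left and PLX5622 libraries in orange on the right of each pair, and black marks for the mean and SD of 2 libraries. Sqle and Idi1 are higher and Abca1 lower on PLX5622 in both populations, Bst2 is higher in both, the Stat2 values lie close together, and Efnb2 separates the diets most in interferon-high cells (98.7 and 71.9 against 50.1 and 46.7).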

How the data were processed

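Droplet libraries (10x Genomics 3′ v3.1) of CD31-sorted mouse brain cells were analysed, 2 on each diet. The authors deposited raw UMI counts per gene and barcode for 32285 genes, without cell calling; the unit follows from the whole-number values, per the file headers of matrices of integers. The headers name Cell Ranger 4, while the submitters' processing notes name Cell Ranger 6.0.1, Seurat 4.0 and the builds mm10 and mm39 with no role; which build was used for the counts is not stated in those sources. Doublets were not called, and 56 interferon-high cells with over 20000 UMIs were kept.

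Counts were summed per library and population, since cells are not replicates, and tested with edgeR 4.0.16 (R 4.3.3; TMM, default low-count filter, robust quasi-likelihood, Benjamini-Hochberg, two-sided at 0.05). The script was tested on simulated data. The library was a block wherever both populations entered. The labels do not say that replicate numbers pair libraries across diets, so the main diet fits had no such block. The 6 rule genes were removed from the comparison of populations. Shares were tested by exact permutation over libraries (scipy 1.17.1). Zone was the marker list with the highest mean scaled value. DESeq2 1.42.0, library totals, no low-count filter, minimums of 5 and 12 UMIs, thinning to 3000 UMIs, a mitochondrial limit of 5%, removal of cells with 3 or more UMIs of another cell type, depth-limited comparison cells and each library left out were alternatives. In the gene fits, thinning to 3000 UMIs decided only which cells met the rule, and their full counts were summed. The members and gene lists were chosen with earlier results of these data known. Named genes were the 12 higher and 8 lower genes of largest difference between populations (same direction in all 4 libraries), up to 8 a direction for diet, all at a mean of at least 20 CPM, up to 4 a list by p, and a fixed set, of which Mx1, Ifi27l2a and Mfsd2a are not described. Promoter sequences are from RefSeq (GRCm38.p6); 14 of 18 genes looked up had a window. Some genes of the lists are not reported here.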

Additional observations from a re-analysis of the deposited data

Results flagged for a closer look

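Among genes at a mean of at least 20 CPM, 3 differed in their diet response between interferon-high and other endothelial cells by the interaction test itself (edgeR quasi-likelihood, 8 sums). Fmo2, a flavin monooxygenase, had an interaction of 0.56 ± 0.10 on the log2 scale (adjusted p = 0.0058). It stood at 52.6 and 48.3 CPM on control diet and at 88.1 and 144 on PLX5622 in interferon-high cells, against 49.0, 53.7, 66.0 and 102 in the others. Ccn2, a matrix-associated growth factor, had an interaction of 0.58 ± 0.11 (adjusted p = 0.0081), with 26.0 and 41.0 against 77.5 and 101 in interferon-high cells and 35.0, 52.5, 72.4 and 83.5 in the others. Efnb2 had -0.60 ± 0.11 (adjusted p = 0.0058), with the values given above. Without PLX5622 diet library 2 the adjusted p was 0.41 for Fmo2, 0.57 for Ccn2 and 0.20 for Efnb2, and without control diet library 2 it was 0.75 for Fmo2 and 0.53 for Ccn2. DESeq2 called none of the 3, and none passed in thinned cells (adjusted p = 0.93 for Fmo2 and 0.87 for Efnb2). Without cells that held markers of other types the adjusted p was 0.059 for Fmo2 and 0.064 for Ccn2 and Efnb2. Fmo2 also missed at a minimum of 5 UMIs (0.057) and Ccn2 at a minimum of 12 (0.69). For diet alone, Fmo2 passed in neither population (adjusted p = 0.054 in interferon-high cells, 0.37 in the others). Ccn2 passed in interferon-high cells only (0.26 in the others).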

How the results depend on the processing

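Genes higher in interferon-high cells numbered 150 with DESeq2, 199 with depth-limited comparison cells and 191 to 318 with 1 library left out (191 without control diet library 2). Genes lower numbered 118, 120 and 102 to 311 in the same order (102 without control diet 2, 133 without PLX5622 diet 1, 186 without PLX5622 diet 2), 72 with thinned cells and 144 without cells holding markers of other types. For diet within interferon-high cells, genes higher numbered 32 with DESeq2, 36 thinned and 64 to 122 leaving out a library; genes lower numbered 12, 9 and 35 to 95 (95 without control diet 1). For diet in other endothelial cells, genes higher numbered 188 without the low-count filter, 71 with DESeq2 and 98 to 437 leaving out a library (291 without control diet 1, 437 without control diet 2); genes lower numbered 115, 28 and 45 to 221 (221 and 177 without those), 85 with library totals and 30 without cells holding markers of other types, and 52.5% of calls were higher with library totals against 67.4%. Deviations of same-numbered libraries from their diet's mean correlated at only 0.050 in interferon-high and 0.070 in other cells. The 2 pairs hold the same values with opposite signs, so this cannot settle whether the numbers mark shared batches. A replicate block gave 77 higher and 32 lower in interferon-high cells and 211 and 130 in the others. The share difference with it was 5.01.

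Interaction calls were 0 in either direction with DESeq2 (21 genes at an unadjusted p under 0.05, 458 with edgeR). Higher ones numbered 1 without cells holding markers of other types and 2 to 9 leaving out a library; lower ones numbered 6 without the low-count filter, 5 and 10 at minimums of 5 and 12 UMIs, 1 at the 5% mitochondrial limit, 4 with depth-limited cells and 4 to 11 leaving out a library. The share difference was -3.25 to 13.3 leaving out a library, reversed without PLX5622 diet 2, and the vein difference was 0.0041 with summed marker UMIs.

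Of 1325 values of named genes over settings, 1172 kept direction and call, 123 lost a call, 4 gained one and 26 changed sign. Between populations these were Ifnar1 (-0.0058 unfiltered, -0.0040 at 5 UMIs, -0.0029 to 0.012 leaving out a library, below 0 without control diet 2 or PLX5622 diet 1), Ifnar2 (0.021 thinned, 0.023 depth-limited), Cxcl12 (0.072 thinned), Icam1 (-0.055 thinned), Cldn5 (0.021 thinned, 0.011 depth-limited), Myl9 (0.12) and Mylk (0.32) without cells holding other markers, Mylk (0.080, 5% mitochondrial limit), Fosb (-0.058 thinned, -0.027 depth-limited), Ier2 (0.031 thinned) and Hspb1 (0.13 thinned, 0.021 depth-limited). For diet within interferon-high cells they were H2-K1 (-0.073 to 0.36 leaving out a library, below 0 without control diet 2) and Cldn5 (-0.16 to 0.093, above 0 without control diet 2 or, at 0.0042, PLX5622 diet 1). In the interaction they were Idi1 (-0.057 to 0.23 leaving out a library, below 0 without PLX5622 diet 2, and -0.16 thinned) and Bst2 (-0.028 to 0.13 leaving out a library, below 0 without control diet 1, -0.0034 at 5 UMIs, -0.044 without cells holding other markers). The cause of these changes was not tested. With 2 libraries a diet that may share mice, depth limits the scarce genes and the number of libraries limits every diet comparison.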

Other observations

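The other 3 genes past the interaction test were scarce. Igkc gave 0, 0, 25 and 12 UMIs in interferon-high cells of control diet 1 and 2 and PLX5622 diet 1 and 2, and 0, 50, 35 and 0 in the others. Hbb-y gave 0, 0, 6 and 32 against 8, 52, 24 and 13, and Aldoc gave 2, 74, 3 and 3 against 8, 31, 12 and 23. In each case 1 or 2 libraries held most of the UMIs.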
